A study of Homo sapiens with 6 samples.

Results

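The genes of the EGFR-ERBB receptors and their ligands were examined in the established human liver carcinoma cell line MHCC97H, carrying a short hairpin RNA against PTBP1 (shPTBP1) or a control hairpin (shControl). The members were taken by symbol: the receptors EGFR, ERBB2 and ERBB3, the EGFR ligands AREG, EREG, HBEGF, TGFA and BTC, and the neuregulins NRG1 and NRG2, 10 of the 58825 genes in the table. Of these, 9 were among the 19393 genes that passed the filter on low counts and were tested; EREG was not. EGFR was by far the most abundant receptor transcript, and its level did not separate the groups. NRG1 and NRG2 differed in opposite directions, with 9.75 ± 3.09 CPM in shPTBP1 cells and 4.73 ± 0.691 CPM in shControl cells for NRG1 (SD, n = 3 each). NRG2 had 8.73 ± 0.936 CPM in shPTBP1 cells and 14.1 ± 4.57 CPM in shControl cells (SD, n = 3 each). Neither difference passed the adjusted threshold of 0.05 in edgeR's quasi-likelihood test, and no other member did.

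Receptors of this family are tyrosine kinases at the cell surface that pair when a ligand binds and then pass the signal to the RAS-MAPK and PI3K pathways. AREG, EREG, HBEGF, TGFA and BTC bind EGFR and are made as membrane-bound precursors that proteases release, whereas the neuregulins bind ERBB3 and ERBB4. ERBB2 has no known ligand of its own and ERBB3 has a weak kinase, so both work mainly as partners of other receptors. In liver, EGFR and its ligands are known for their part in hepatocyte growth and regeneration.

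RNA of 6 libraries was sequenced, 3 labelled as PTBP1 knockdown with shPTBP1 (1, 2 and 3) and 3 labelled wild type with shControl (1, 2 and 3). PTBP1 is an RNA-binding splicing regulator, and the series set out to find splicing events tied to it. The labels do not say which hairpin each library carries or whether the libraries of a group came from separate cultures, so p-values measure only the spread between these libraries. The library totals were between 68704509 and 85317970 deposited counts.

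PTBP1 had 17.3, 16.9 and 18.0 FPKM (fragments per kilobase and per 1000000 fragments) in shPTBP1 1, 2 and 3, against 21.2, 16.4 and 27.4 FPKM in shControl 1, 2 and 3. The groups overlapped, since shControl 2 lay below all 3 libraries labelled shPTBP1, and the log2 fold change was -0.29 (standard error, SE, 0.18, adjusted p = 0.953 by edgeR). Without shControl 3 that value was -0.10 and without shControl 2 it was -0.45, neither past the adjusted threshold. PTBP2, a paralog whose transcript is known to be held down by PTBP1, had 59.0, 62.6 and 50.5 CPM (counts per 1000000 counts, scaled by TMM) in shPTBP1 1, 2 and 3, against 31.2, 28.7 and 9.20 CPM in shControl 1, 2 and 3. All shPTBP1 libraries exceeded all shControl libraries for PTBP2, with a log2 fold change of 1.32 (SE 0.41, adjusted p = 0.718 by edgeR and 0.0503 by DESeq2). Directions below are between libraries as labelled. The label of a liver carcinoma line was set against 13 hepatic and epithelial markers: AFP, ALB, APOB, TTR, FGB and EPCAM were at 0 in all 6 libraries, and 10 of the 13 stayed under 1 CPM in each. The keratins KRT8 and KRT18 were at 301 to 435 CPM and 319 to 411 CPM over the 6 libraries. Summed red-cell markers were at 851, 760.2 and 1.15 CPM in shPTBP1 1, 2 and 3, against 1281, 800.2 and 1.32 CPM in shControl 1, 2 and 3, so that these transcripts were present in the libraries numbered 1 and 2 of both groups and nearly absent from those numbered 3. The summed levels of 8 neutrophil and monocyte markers and of 7 lymphocyte markers split the same way, although single markers were at 0 in some of these libraries. The sum of 4 endothelial markers was lowest in the library numbered 2 of each group, with 9.65, 2.56 and 10.8 CPM in shPTBP1 1, 2 and 3, against 6.54, 1.64 and 13.5 CPM in shControl 1, 2 and 3. The part of these cells in any result was not tested.

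EGFR stood far above the rest of the family by FPKM. Over the 6 libraries it averaged 53.1 ± 6.63 FPKM (SD, n = 6). That level was above that of 97.7% of the 30653 genes with an FPKM above 0 in any library. ERBB2, the orphan receptor, followed with 3.53 ± 0.266 FPKM and NRG2 with 2.13 ± 0.815 FPKM. HBEGF, the heparin-binding EGFR ligand, averaged 0.982 ± 0.236 FPKM and was the most abundant of the EGFR ligands among the members. AREG followed with 0.628 ± 0.309 FPKM. ERBB3, NRG1, BTC and TGFA averaged 0.313, 0.280, 0.268 and 0.185 FPKM, and EREG came last with 0.00667 FPKM. The ranges over the 6 libraries did not overlap between the neighbours EGFR and ERBB2, NRG2 and HBEGF, or TGFA and EREG. All other neighbours in this order overlapped, although ERBB2 exceeded NRG2 and AREG exceeded ERBB3 within each of the 6 libraries. FPKM rests on a length per gene that is not stated, so this order belongs to that scale. CPM takes no account of length. By CPM, EGFR, ERBB2 and NRG2 kept ranks 1, 2 and 3, and NRG1 took rank 4 in place of rank 7.

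**Figure D1:**
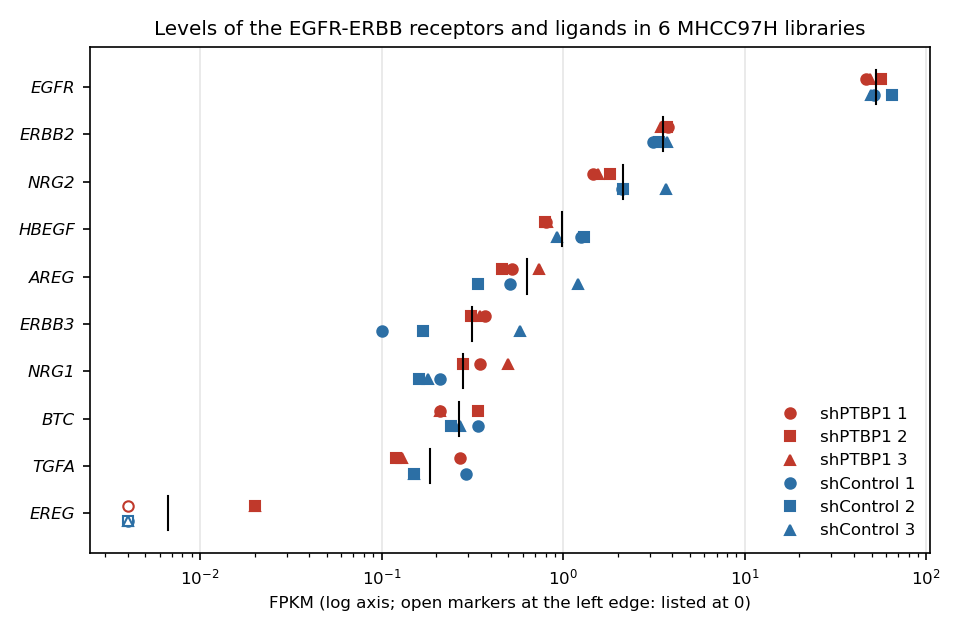
FPKM of the 10 genes on a log axis, 1 marker per library (red shPTBP1 above blue shControl; circle, square and triangle for libraries 1, 2 and 3), with a black line at the mean of the 6 libraries. EGFR lies between 46.6 and 64.9 FPKM, far right of ERBB2 at 3.12 to 3.80 FPKM, and the open markers show the 4 libraries in which EREG is listed at 0.

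Sequence upstream of the start site was available for 8 of the 10 members in the RefSeq promoter table (GRCh38.p14), which held none for ERBB3 or NRG1. The 250 bases before the start are shown for EGFR and EREG, at the top and the bottom of the order of levels, and for HBEGF and NRG2, the members with every shPTBP1 library below every shControl library. Capitals mark matches on either strand to the GC box GGGCGG, the TATA box TATAAA and the AP-1-like pattern TGANTCA, with N any base. A match on the other strand is printed as its reverse complement. The windows were chr7:55018767-55019016 on the plus strand for EGFR, chr5:140346604-140346853 on the minus strand for HBEGF, chr5:140043300-140043549 on the minus strand for NRG2 and chr4:74364895-74365144 on the plus strand for EREG.
EGFR: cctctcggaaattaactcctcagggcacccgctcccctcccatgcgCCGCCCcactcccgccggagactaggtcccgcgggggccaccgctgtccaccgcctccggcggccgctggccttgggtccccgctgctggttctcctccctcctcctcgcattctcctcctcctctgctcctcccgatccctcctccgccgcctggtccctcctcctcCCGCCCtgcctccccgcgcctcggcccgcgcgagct
HBEGF: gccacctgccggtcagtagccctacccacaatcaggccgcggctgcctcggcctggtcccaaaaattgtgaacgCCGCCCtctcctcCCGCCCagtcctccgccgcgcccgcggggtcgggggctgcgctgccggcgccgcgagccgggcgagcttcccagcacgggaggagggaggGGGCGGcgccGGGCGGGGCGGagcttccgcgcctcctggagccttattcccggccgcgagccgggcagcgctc
NRG2: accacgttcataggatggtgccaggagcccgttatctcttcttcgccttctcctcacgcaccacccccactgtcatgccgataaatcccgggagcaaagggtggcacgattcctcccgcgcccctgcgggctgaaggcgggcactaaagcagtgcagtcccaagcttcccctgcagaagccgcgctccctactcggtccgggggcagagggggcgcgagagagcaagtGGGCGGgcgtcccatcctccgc
EREG: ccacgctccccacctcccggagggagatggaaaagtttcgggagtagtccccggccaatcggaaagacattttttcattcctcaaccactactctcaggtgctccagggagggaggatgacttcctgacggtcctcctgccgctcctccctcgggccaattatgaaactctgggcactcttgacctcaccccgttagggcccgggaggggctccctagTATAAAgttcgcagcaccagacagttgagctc

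EGFR's window held 2 GC boxes and no TATA box, at a GC content of 73.6%. HBEGF's held 5 GC boxes, a pair of them sharing 1 base, at a GC content of 76.4%, the highest of the 8 members. NRG2's held 1 GC box, 22 bases before the start, at 65.2% GC. EREG's held no GC box but a TATA box 32 bases before the start, and AREG's held a TATA box 29 bases before the start together with 1 GC box. The AP-1-like pattern was found in the window of ERBB2 alone among the 8 members, as TGATTCA. That window ends before a RefSeq start at 39688094, inside ERBB2 as placed here, which begins at 39687914. Among all 35116 promoters of the table, windows of the same length held a GC box in 42.6%, a TATA box in 10.7% and the AP-1-like pattern in 6.57%. Their median GC content was 58.0%, which is also EREG's value. These matches describe the letters only.

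EGFR lies on chromosome 7 of hg38 from 55019017 to 55211628 on the plus strand. It had 699, 839 and 750.4 CPM in shPTBP1 1, 2 and 3, against 775, 958 and 724 CPM in shControl 1, 2 and 3. The groups overlapped, and in both the library numbered 2 was the highest. EGFR had a log2 fold change of -0.10 (SE 0.13, adjusted p = 0.982 by edgeR), and it lay between -0.18 and 0.03 when each library was left out in turn, turning positive without shControl 2. EGFR-AS1, on the opposite strand within EGFR, had counts equal to 0.0678% of EGFR's. The genes most like EGFR in profile over the 6 libraries were NRAV, PRRC2C and SMCR8, with root mean squared differences of 0.0338, 0.0353 and 0.0375 in centred log2 CPM. The median was 0.234 over 11985 candidates. All 3 shared the high value in the libraries numbered 2, such as SMCR8 with 79.4, 96.4 and 85.4 CPM in shPTBP1 1, 2 and 3, against 91.0, 106 and 78.3 CPM in shControl 1, 2 and 3. These genes were picked for likeness to EGFR, so the shared high value adds no evidence.

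ERBB2, from 39687914 to 39730426 on the plus strand of chromosome 17, had 47.0, 46.0 and 43.6 CPM in shPTBP1 1, 2 and 3, against 38.7, 40.9 and 44.6 CPM in shControl 1, 2 and 3. Only shControl 3 reached into the range of the shPTBP1 libraries. ERBB2 differed by 0.14 on the log2 scale (SE 0.11, adjusted p = 0.959 by edgeR) and stayed between 0.09 and 0.19 without any 1 library. MIEN1 and PGAP3 overlap ERBB2 on the other strand, with counts equal to 28.3% and 16.5% of ERBB2's. Because counting by strand is not stated, reads in the shared stretches cannot be assigned with certainty.

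ERBB3, the receptor that binds neuregulins, was the member that 1 library moved most. Its gene runs from 56076799 to 56103499 on the plus strand of chromosome 12. It had 4.10, 3.37 and 3.94 CPM in shPTBP1 1, 2 and 3, against 1.13, 1.86 and 6.17 CPM in shControl 1, 2 and 3. The shPTBP1 libraries lay close together, above shControl 1 and 2 and below shControl 3. Over all libraries the log2 fold change was 0.32 (SE 0.59, adjusted p = 0.985 by edgeR). Without shControl 3 it was 1.34 (SE 0.29, adjusted p = 0.113 and unadjusted p = 0.0034 by edgeR), and without shControl 1 it was -0.08. In the libraries numbered 1 and 2 alone it was 1.32 (adjusted p = 0.170, edgeR).

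Within the receptors, EGFR made up 91.8%, 93.3% and 92.8% of the summed FPKM of EGFR, ERBB2 and ERBB3 in shPTBP1 1, 2 and 3, against 94.1%, 94.8% and 92.1% in shControl 1, 2 and 3. The groups overlapped. The ratio of EGFR to ERBB2 was 12.2, 15.1 and 14.3 in shPTBP1 1, 2 and 3, against 16.6, 19.3 and 13.4 in shControl 1, 2 and 3, again overlapping through shControl 3. The share of ERBB3 was at most 1.07%, in shControl 3.

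HBEGF lies from 140332843 to 140346603 on the minus strand of chromosome 5, and no annotated gene overlaps it. It had 2.88, 2.84 and 3.00 CPM in shPTBP1 1, 2 and 3, against 4.51, 4.66 and 3.20 CPM in shControl 1, 2 and 3. Every shPTBP1 library was below every shControl library, by a narrow margin from shControl 3. Over all genes tested, 5.46% had such an order. On the log2 scale HBEGF differed by -0.50 (SE 0.23, adjusted p = 0.895 and unadjusted p = 0.0602 by edgeR), and it was -0.66 without shControl 3 (adjusted p = 0.152, edgeR). Leaving out any 1 library kept it between -0.66 and -0.41.

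AREG, amphiregulin, from 74445136 to 74455005 on the plus strand of chromosome 4, had 1.03, 0.914 and 1.49 CPM in shPTBP1 1, 2 and 3, against 1.01, 0.670 and 2.31 CPM in shControl 1, 2 and 3. The library numbered 3 was the highest in both groups and the one numbered 2 the lowest, and the groups overlapped. The log2 fold change was -0.21 (SE 0.50, adjusted p = 0.991 by edgeR). Its sign turned to 0.45 without shControl 3 and to 0.22 in the libraries numbered 1 and 2 alone.

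EREG, epiregulin, from 74365145 to 74388749 on the plus strand of chromosome 4, was close to the limit of detection. It had 0, 11 and 8 deposited counts in shPTBP1 1, 2 and 3, against 0 in each shControl library. If every deposited count were its own fragment, a count of 0 would allow up to 3 counts in a library, or 0.0352 to 0.0437 CPM here. EREG had 0.142 and 0.111 CPM in shPTBP1 2 and 3. Many low counts were multiples of 4 and the depth in fragments is unknown, so the limit for a 0 may be higher. Whether shPTBP1 2 and 3 exceeded it cannot be told. Such a limit covers counting error only. EREG did not pass the filter on low counts and so was outside the edgeR test. DESeq2 gave it an unadjusted p of 0.0777 and no adjusted p, and neither edgeR nor limma called it when run without a filter.

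TGFA, transforming growth factor alpha, from 70447284 to 70553826 on the minus strand of chromosome 2, had 1.60, 0.734 and 0.778 CPM in shPTBP1 1, 2 and 3, against 1.71, 0.855 and 0.849 CPM in shControl 1, 2 and 3. The libraries numbered 1 were high in both groups, and the remaining 4 lay close together. The fitted difference on the log2 scale was -0.13 (SE 0.46, adjusted p = 0.995 by edgeR), with values between -0.59, without shPTBP1 1, and 0.28, without shControl 1, as single libraries were left out.

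BTC, betacellulin, which binds ERBB4 as well as EGFR, runs from 74744759 to 74794523 on the minus strand of chromosome 4. It had 0.681, 1.07 and 0.680 CPM in shPTBP1 1, 2 and 3, against 1.10, 0.751 and 0.849 CPM in shControl 1, 2 and 3. The ranges overlapped almost wholly. The fitted difference on the log2 scale was -0.15 (SE 0.35, adjusted p = 0.991 by edgeR). BTC, AREG and EREG share a stretch of chromosome 4 with EPGN: the gap between EPGN and EREG is 49.8 kb, that between EREG and AREG 56.4 kb and that between AREG and BTC 289.8 kb. The highest library was shControl 3 for AREG, shControl 1 for BTC, shPTBP1 2 for EREG and shPTBP1 3 for EPGN. BTC was nearly as high in shPTBP1 2, and at the low counts of BTC, AREG and EREG the order of libraries is uncertain.

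Summed over AREG, EREG, HBEGF, TGFA and BTC, the EGFR ligands had 1.80, 1.73 and 1.92 FPKM in shPTBP1 1, 2 and 3, against 2.39, 2.04 and 2.54 FPKM in shControl 1, 2 and 3. Each shPTBP1 library was below each shControl library, which is a description of these sums and was not tested. The order was lost once EPGN, an EGFR ligand outside the members, was added: the sum was then 4.59, 5.02 and 7.91 FPKM in shPTBP1 1, 2 and 3, against 4.86, 4.26 and 4.63 FPKM in shControl 1, 2 and 3. Of the 5 ligands, HBEGF alone was lower in every shPTBP1 library than in any shControl library, and AREG, EREG, TGFA and BTC overlapped. HBEGF made up 44.4%, 45.7% and 42.7% of the sum of the 5 in shPTBP1 1, 2 and 3, against 52.3%, 64.2% and 36.2% in shControl 1, 2 and 3. In shControl 3 AREG took the larger share, with 47.2%.

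**Figure D2:**
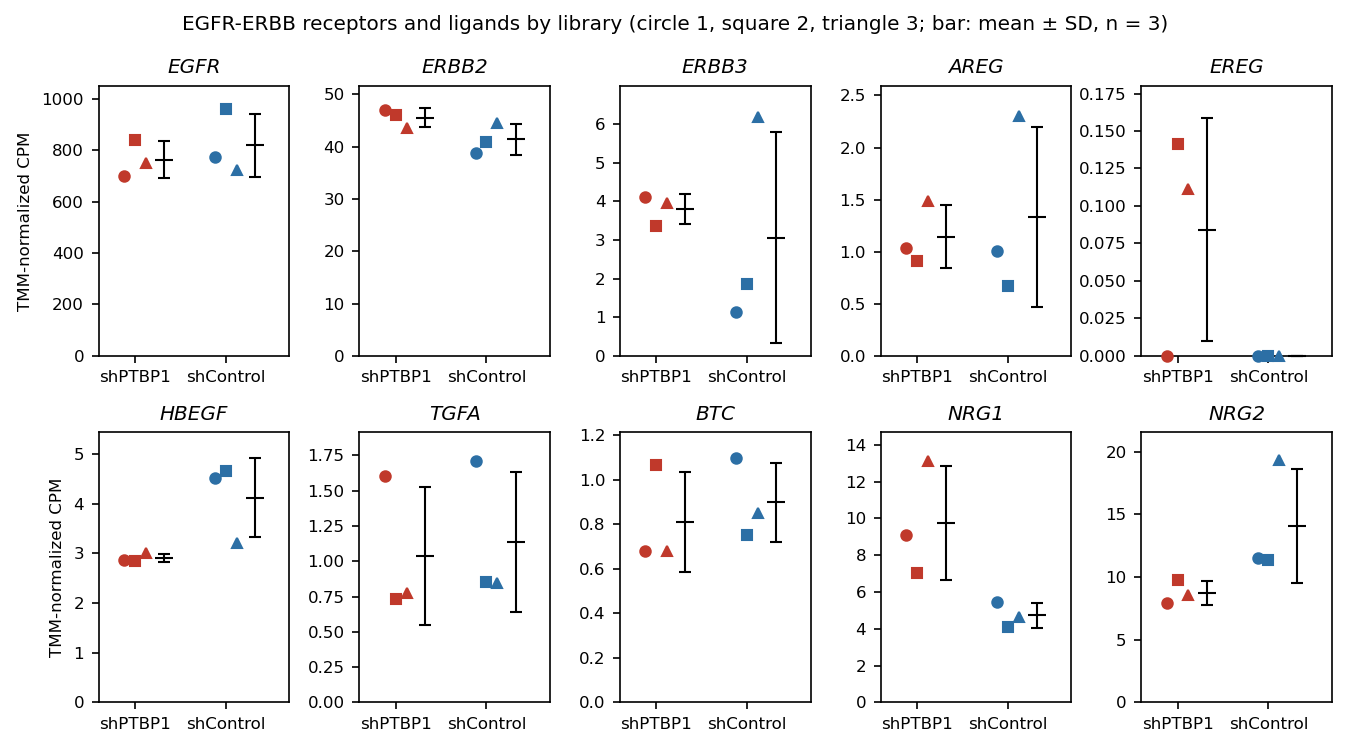
TMM-normalized CPM of each gene in the 3 shPTBP1 libraries (red, left) and the 3 shControl libraries (blue, right), with the mean and SD (n = 3) beside each group; each panel has its own scale from 0. All 3 shPTBP1 libraries sit above the shControl libraries for NRG1 (7.05 to 13.1 against 4.10 to 5.47 CPM) and below them for HBEGF and NRG2, while shControl 3 stands apart in ERBB3, AREG and NRG2.

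NRG1, a neuregulin ligand of ERBB3 and ERBB4, lies on the plus strand of chromosome 8 from 31639222 to 32855666. It had 9.08, 7.05 and 13.1 CPM in shPTBP1 1, 2 and 3, against 5.47, 4.10 and 4.61 CPM in shControl 1, 2 and 3. Every shPTBP1 library was above every shControl library, an order that 6.49% of all genes tested had. NRG1 had a log2 fold change of 1.04 (SE 0.27, adjusted p = 0.559 and unadjusted p = 0.0056 by edgeR), about 2.06-fold in the mean CPM. DESeq2 gave 1.04 with an adjusted p = 0.0414, under the threshold. Without single libraries the edgeR value lay between 0.77, without shPTBP1 3, and 1.23, without shPTBP1 2.

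NRG2, the second neuregulin, from 139846779 to 140043299 on the minus strand of chromosome 5, had 7.92, 9.76 and 8.53 CPM in shPTBP1 1, 2 and 3, against 11.5, 11.4 and 19.3 CPM in shControl 1, 2 and 3. All shPTBP1 libraries were below all shControl libraries, and shControl 3 stood far above the other two. NRG2 had a log2 fold change of -0.69 (SE 0.25, adjusted p = 0.809 and unadjusted p = 0.0262 by edgeR), and DESeq2 gave an adjusted p = 0.409. Without shControl 3 the edgeR value was -0.39 (SE 0.15, adjusted p = 0.289). NRG2 was known to differ in these libraries when the genes were chosen, so its direction here is not independent evidence. NRG2 lies 289.5 kb from HBEGF on the same strand of chromosome 5, and both were lower in every shPTBP1 library than in any shControl library.

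The genes most like NRG2 in profile were the long noncoding RNA LINC00857, the homeobox gene MEOX1 and IGFBP4, a binding protein of insulin-like growth factors, with root mean squared differences of 0.119, 0.137 and 0.140 in centred log2 CPM over the 6 libraries. The median was 0.455 over 11985 candidates. All 3 had their highest level in shControl 3. They were picked for likeness to NRG2, so this shared peak adds no evidence. LINC00857 had 11.9, 12.2 and 12.2 CPM in shPTBP1 1, 2 and 3, against 15.0, 13.3 and 27.5 CPM in shControl 1, 2 and 3. IGFBP4 had 42.7, 42.4 and 49.9 CPM in shPTBP1 1, 2 and 3, against 51.7, 55.3 and 95.8 CPM in shControl 1, 2 and 3.

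The balance of the neuregulins differed between the groups without overlap. This had to follow, since NRG1 was higher and NRG2 lower in every shPTBP1 library, so it adds no separate evidence. NRG1 made up 19.3%, 13.4% and 24.4% of the summed FPKM of NRG1 and NRG2 in shPTBP1 1, 2 and 3, against 9.01%, 6.99% and 4.65% in shControl 1, 2 and 3. The ratio of NRG2 to NRG1 was 4.17, 6.46 and 3.10 in shPTBP1 1, 2 and 3, against 10.1, 13.3 and 20.5 in shControl 1, 2 and 3. By FPKM, NRG2 was the more abundant neuregulin in each of the 6 libraries. By CPM, which takes no account of length, NRG1 made up 53.4%, 42.0% and 60.6% of the sum in shPTBP1 1, 2 and 3, against 32.2%, 26.5% and 19.3% in shControl 1, 2 and 3. The groups were apart on both scales, which the separate orders of NRG1 and NRG2 had already fixed. Which of NRG1 and NRG2 was the larger in shPTBP1 1 and 3 turned with the scale. These ratios were not tested.

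**Figure D3:**
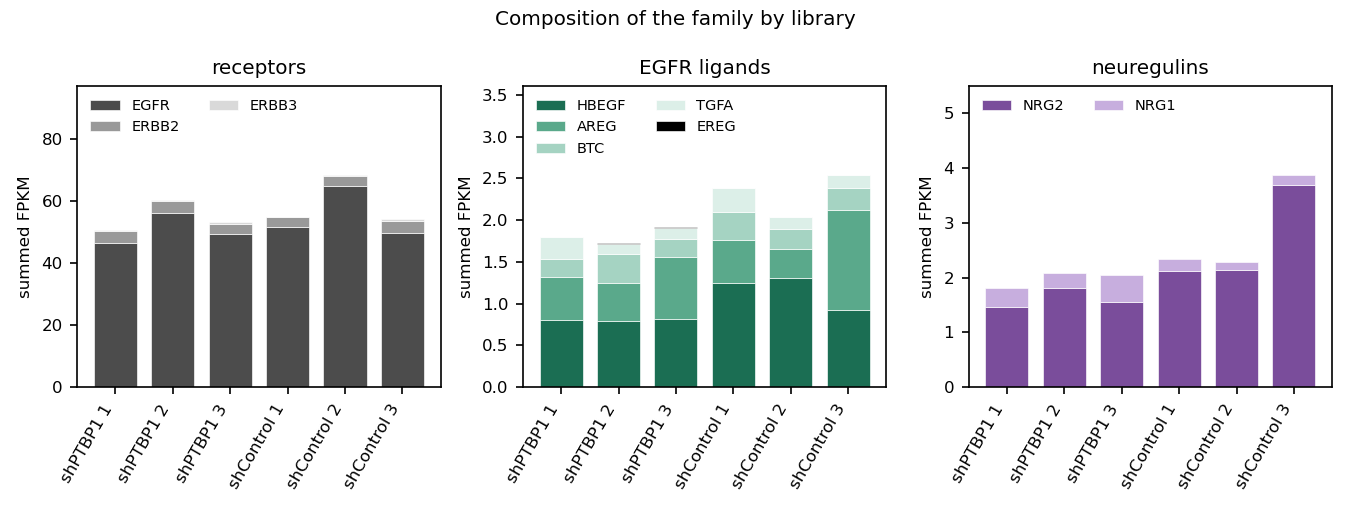
Stacked FPKM per library, 3 shPTBP1 libraries left of 3 shControl libraries, for the receptors, the 5 EGFR ligands among the members (without EPGN and EGF) and the neuregulins. EGFR fills most of each receptor bar; the ligand bars reach 1.73 to 1.92 FPKM in shPTBP1 and 2.04 to 2.54 FPKM in shControl; the NRG1 part of the neuregulin bars is larger in shPTBP1.

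Markers of other cell types were read beside these members. Of 6 fibroblast markers, COL1A2 was at 0 in every library and LUM and DCN stayed under 1 CPM, while the summed level ran from 356 to 477 CPM in shPTBP1 and from 269 to 327 CPM in shControl. Most of that sum was COL3A1, a fibrillar collagen, with 352, 335 and 268 CPM in shPTBP1 1, 2 and 3, against 164, 206 and 202 CPM in shControl 1, 2 and 3. The sum did not overlap between the groups, as for NRG1, NRG2 and HBEGF, but this came from COL3A1. COL1A1 and PDGFRB, the other markers above 1 CPM, overlapped. Without COL3A1 the remaining 5 markers summed to 125, 128 and 87.5 CPM in shPTBP1 1, 2 and 3, against 106, 101 and 125 CPM in shControl 1, 2 and 3, again with overlap. In bulk RNA, a change in the share of cells with a transcript and a change of its level per cell cannot be told apart.

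In edgeR 0 of 9 members tested passed the adjusted threshold, where 0.0309% of all genes tested did (6 of 19393). At an unadjusted p under 0.05 there were 2 of 9, NRG1 among the higher and NRG2 among the lower genes, against 5.69% of all genes tested, with 3.58% higher and 2.11% lower. DESeq2 called 1 of the 9 members to which it gave an adjusted p, NRG1, where it called 0.753% of all such genes. Limma on log2(FPKM + 1) called 0 of the 3 members with a mean of at least 1 FPKM, EGFR, ERBB2 and NRG2, where 0.0749% of genes passed. Groups did not overlap for 3 of the 9 members, 1 higher and 2 lower, against 11.9% of all genes tested in either direction. The counts of 2 and of 3 members both include NRG2, which was known to differ when the members were chosen. They are therefore not independent evidence of an excess over all genes. The median log2 fold change of the 9 was -0.13, beside -0.01 for all genes tested, and the median absolute log2 fold change was 0.21, beside 0.19. Without shControl 3, where 0.674% of genes tested passed the adjusted threshold, and in the libraries numbered 1 and 2, where 0.319% did, 0 of 9 members passed in edgeR.

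**Figure D4:**
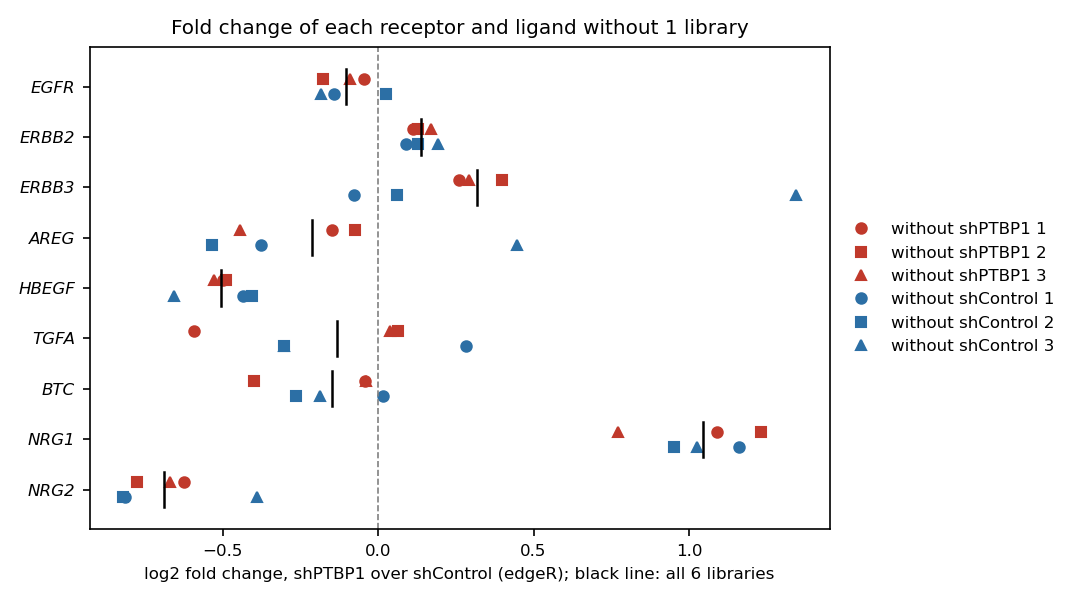
Log2 fold change (shPTBP1 over shControl, edgeR) of the 9 genes tested, 1 marker for each library left out and a black line for all 6 libraries. ERBB3 moves to 1.34 and AREG to 0.45 without shControl 3, NRG2 moves to -0.39, and NRG1 stays between 0.77 and 1.23.

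Of the receptor and ligand genes outside the members, 5 in all, 4 were tested and none passed the adjusted threshold. EGF, the founding EGFR ligand, had 0.857, 1.03 and 0.986 CPM in shPTBP1 1, 2 and 3, against 1.33, 1.68 and 1.91 CPM in shControl 1, 2 and 3, with a log2 fold change of -0.77 (SE 0.28, adjusted p = 0.820 and unadjusted p = 0.0273 by edgeR). EPGN, epigen, an EGFR ligand next to EREG, had 6.10, 7.13 and 13.2 CPM in shPTBP1 1, 2 and 3, against 5.41, 4.80 and 4.44 CPM in shControl 1, 2 and 3, with a log2 fold change of 0.85 (adjusted p = 0.822, edgeR). Both were without overlap between the groups, EGF lower and EPGN higher in shPTBP1. EPGN's difference was smaller without shPTBP1 3, with a log2 fold change of 0.44, and shPTBP1 1 and 2 still exceeded every shControl library. With 2.79 to 5.99 FPKM in shPTBP1 and 2.09 to 2.47 FPKM in shControl, EPGN had a higher FPKM than any of the 5 EGFR ligands among the members. ERBB4, the other neuregulin receptor, had 1.41, 1.12 and 0.778 CPM in shPTBP1 1, 2 and 3, against 0.468, 0.127 and 2.14 CPM in shControl 1, 2 and 3, a pattern across shControl like that of ERBB3. NRG4 had 7.34, 8.66 and 7.87 CPM in shPTBP1 1, 2 and 3, against 7.37, 10.4 and 6.16 CPM in shControl 1, 2 and 3. NRG3 was at 0 in 5 libraries and was not tested.

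Genes that release or hold the ligands, 10 of 10 tested, gave no call in edgeR and 5 positive against 5 negative log2 fold changes. ADAM12, a metalloprotease able to shed HBEGF, had 1.24, 1.04 and 0.597 CPM in shPTBP1 1, 2 and 3, against 0, 0 and 0.142 CPM in shControl 1, 2 and 3. Its groups did not overlap. The unadjusted p was 0.0105 and the adjusted p 0.651 in edgeR, while DESeq2 gave an adjusted p = 0.0113, and edgeR without shControl 3 an adjusted p = 0.0459. DESeq2 and the fit without shControl 3 thus called ADAM12 higher, with shControl libraries at 0 or near the limit of detection. The median log2 fold change of the list was 0.00 and that of all genes tested -0.01.

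Partners of the receptors, 8 of 8 tested, gave no call over all libraries. CD9, a tetraspanin that binds the HBEGF precursor, had 184, 177 and 177 CPM in shPTBP1 1, 2 and 3, against 115, 114 and 168 CPM in shControl 1, 2 and 3. Its groups did not overlap, although shControl 3 came close to the shPTBP1 libraries. The log2 fold change was 0.44 (SE 0.17, adjusted p = 0.837 and unadjusted p = 0.0334 by edgeR), and without shControl 3 it was 0.65 and passed the threshold (adjusted p = 0.0420, edgeR). The list's median log2 fold change was 0.05.

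Adaptors and effectors of the receptors, 21 of 21 tested, gave 10 positive and 11 negative log2 fold changes and no call. SOS2, an exchange factor that activates RAS, had 42.1, 37.9 and 31.6 CPM in shPTBP1 1, 2 and 3, against 24.8, 26.1 and 29.7 CPM in shControl 1, 2 and 3, with a log2 fold change of 0.47 (adjusted p = 0.725, edgeR). GRB2, the adaptor that brings SOS proteins to the receptor, had 174, 196 and 173 CPM in shPTBP1 1, 2 and 3, against 222, 221 and 202 CPM in shControl 1, 2 and 3, with a log2 fold change of -0.24 (adjusted p = 0.873, edgeR). Neither gene's groups overlapped, and the signs of their differences were opposite. The list's median was -0.04.

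Genes that attenuate or sort the receptors, 16 of 17 tested, had a median log2 fold change of 0.07 and no call. ERRFI1, an inhibitor of the EGFR kinase that EGFR signalling itself induces, had 16.6, 13.5 and 11.3 CPM in shPTBP1 1, 2 and 3, against 9.01, 9.96 and 8.52 CPM in shControl 1, 2 and 3. Every shPTBP1 library was above every shControl library, with a log2 fold change of 0.59 (SE 0.19, adjusted p = 0.725 and unadjusted p = 0.0157 by edgeR). Over the 5 lists together, 59 of 61 genes were tested, 0 passed the adjusted threshold by edgeR, and an unadjusted p under 0.05 was found for 7, 5 of them higher and 2 lower in shPTBP1, beside 5.69% of all genes tested. The lists were chosen with earlier results of these data known. Across the lists DESeq2 called 1 gene, ADAM12, beside 0.753% of all genes to which it gave an adjusted p. Limma on log2(FPKM + 1) called 0, where 0.0749% of genes passed. ADAM12 averaged 0.0417 FPKM and was outside that fit, which took genes averaging 1 FPKM or more. Limma without a filter also called 0 of the list genes.

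**Figure D5:**
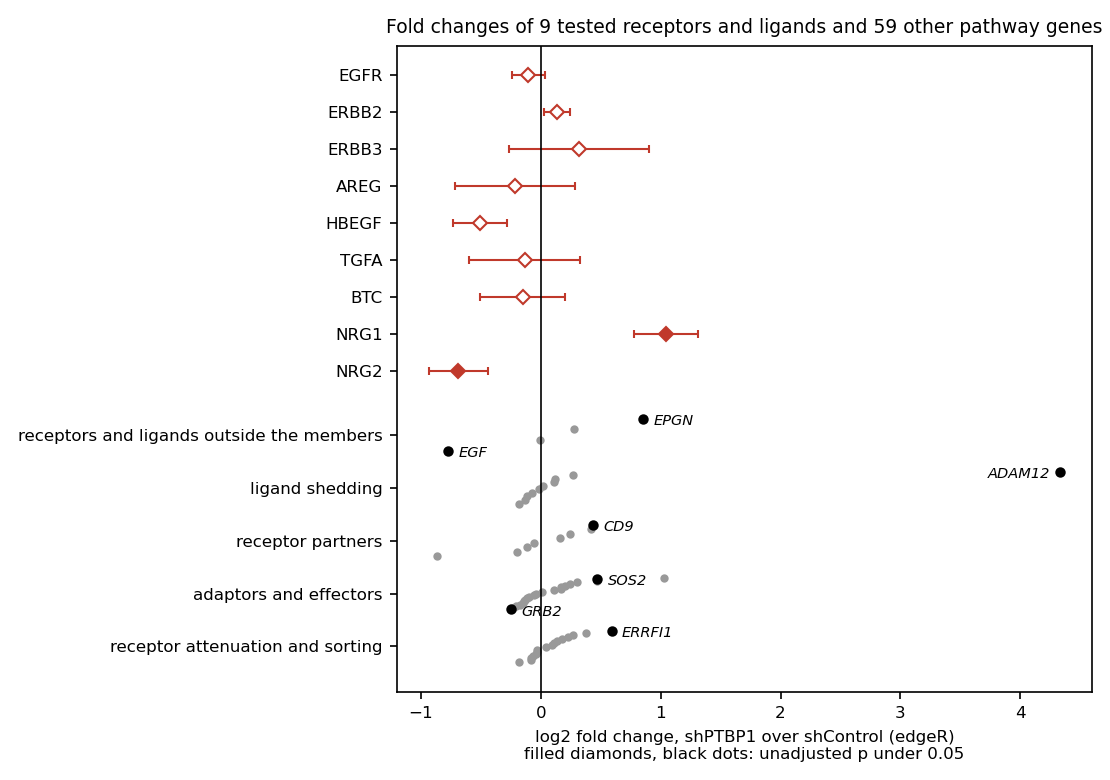
Log2 fold change (shPTBP1 over shControl, edgeR) of the 9 receptors and ligands tested (diamonds, bars: standard error) and of 59 further genes of the pathway in 5 lists (dots); filled diamonds and black dots have an unadjusted p under 0.05. NRG1 at 1.04 and NRG2 at -0.69 lie farthest from 0 among the diamonds, and ADAM12 at 4.33, with shControl libraries at or near 0, farthest among the dots.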

How the data were processed

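RNA of MHCC97H cells was sequenced from poly(A) RNA with a dUTP protocol. Per the labels, cutadapt 1.9, FastQC, HISAT2 2.2.1, StringTie and hg38 were used, without settings or a strand option for counting. The authors deposited FPKM, given to 2 decimals and relative to gene length and library size, and counts for 58825 genes. The deposited counts are whole but were treated as estimated counts, since 32.5% to 34.4% of those from 1 to 40 were multiples of 4 in each library; the depth in fragments is unknown, and a limit from counts covers counting error only.

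Counts of shPTBP1 and shControl libraries, grouped by title, were compared with edgeR 4.0.16 (R 4.3.3): filterByExpr by group, TMM scaling, quasi-likelihood F test without covariates, and Benjamini-Hochberg adjustment over the 19393 genes kept, with a threshold of 0.05. The standard error is the absolute log2 fold change divided by the square root of F. Alternatives were DESeq2 1.42.0, RLE factors or library totals, no filter, limma 3.58.1 on log2(FPKM + 1) for genes averaging 1 FPKM or more, a pseudocount of 0.1, no FPKM filter, a replicate block, each library left out, libraries numbered 1 and 2 only, number 3 as a covariate, and counts divided by 4. Steps were tested on simulated data. Levels were ordered by FPKM. Promoters came from RefSeq (GRCh38.p14), and tables were made with Python 3.11.15 and pandas 2.3.3.

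The named genes were the 10 members, PTBP1, list genes at an unadjusted p under 0.05, and the 3 genes closest in centred log2 CPM to EGFR and to NRG2, among genes with a mean of at least 1 FPKM. ERBB4, NRG3, NRG4, PTBP2, the collagens, PDGFRB and the keratins, and the sums with EPGN and without COL3A1, were added after their values were seen. The members and lists were chosen with earlier results of these data known. Splicing was not analysed here, since the values are per gene, and some marker values are not reported here.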

Additional observations from a re-analysis of the deposited data

How the results depend on the processing

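Of 141 values of the members under the alternatives, 132 kept their sign and side of the threshold, 8 changed sign and 1, NRG1 in DESeq2 (1.04), passed the threshold. Over all genes edgeR called 6. The count was 168 in DESeq2, which also called 1 member and 1 gene of ligand shedding (edgeR 0 each), 1 in limma without a filter, 63 in libraries numbered 1 and 2 only, 3 with number 3 as a covariate, and 2 to 136 as single libraries were left out, the highest without shControl 3. Over the same fits, ligand shedding and receptor partners had 0 to 1 called genes. The log2 fold changes then ran from -0.18 to 0.026 for EGFR, -0.077 to 1.34 for ERBB3, -0.53 to 0.45 for AREG, -0.59 to 0.28 for TGFA and -0.40 to 0.017 for BTC, and all of these signs turned at least once. AREG was also reversed, at 0.22, in libraries numbered 1 and 2 only. The causes were not tested.

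Over all genes tested, library numbers gave no clear pairing of the samples. Deviations of same-numbered libraries correlated at -0.06, 0.12 and 0.02. The value of the libraries numbered 2 was the highest of all pairs, while shPTBP1 1 correlated best with shControl 3, at 0.085. Summed red-cell and endothelial markers did follow the number in both groups. With a replicate block, 0 genes were called over all genes and 0 members, in place of 6 and 0. At levels near 1 CPM or below, as for EREG, BTC, TGFA and AREG, the counts limit what can be told.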
